A study of Mus musculus with 16 samples.

Results

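Oocytes that completed their growth in cultured follicles were compared with all oocytes that grew in the ovary. The libraries were divided by place of growth as the sample labels give it: 4 libraries of oocytes from in vitro follicle culture (IFC1 to IFC4) against 12 libraries of oocytes grown in vivo, which were 5 of superovulated prepubertal females (SO), 4 of superovulated adult females (SOA) and 3 of adult females that ovulated naturally (IV). These 16 libraries are the whole series. Each library was made from a pool of mature (metaphase-II) oocytes of C57BL/6J X CBA/Ca F1 females, by post-bisulphite adapter tagging (PBAT), a form of whole-genome bisulphite sequencing in which adapters are added after the conversion so that little DNA is lost.

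The labels give an age of 23 days for IFC and SO and of 10 weeks for SOA and IV. For IFC this age counts the days in culture, since the preantral follicles were taken from younger females. By the methods of the study, IFC oocytes grew in medium with recombinant follicle-stimulating hormone. They matured there after recombinant human chorionic gonadotrophin and epidermal growth factor were added. SO and SOA oocytes came from females given equine and human chorionic gonadotrophin, and IV females received no hormone. The in vivo side therefore mixes 2 ages and 2 modes of ovulation, whereas all IFC oocytes are of prepubertal origin. SO is the only in vivo group of that origin. A pool averages over its oocytes, so a middle level in a library can come from partly methylated oocytes or from a mixture of methylated and unmethylated ones. The study treats the pools as biological replicates and drew IFC oocytes from several independent cultures, but which females or cultures went into which pool is not given in the labels, so the p-values below measure the spread between these pools.

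DNA methylation of the mouse oocyte is laid down de novo during oocyte growth, after the genome of the germ line has been almost cleared of it. The methyltransferase DNMT3A and its cofactor DNMT3L place it mainly over transcribed gene bodies, which gives the oocyte genome alternating methylated and unmethylated domains. The maternal imprints are set in the same period, and the growth phase is the phase that follicle culture replaces.

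Methylation was read as the percentage of methylated calls over fixed, non-overlapping bins of 10 kb on the 19 autosomes (GRCm38). Of 246266 bins, 127112 held at least 10 calls in all 16 libraries and were compared. The IFC libraries held 5311009 to 8231898 calls and the in vivo libraries 5218053 to 23065411. A median bin held 27 to 43 calls in IFC and 27 to 120 in vivo, so depth differed between the sides. As a check of the label, maternally methylated imprints were read at the starts of their transcripts: they were methylated at 84.4% to 92.7% of calls in the IFC libraries and at 75.3% to 92.0% in vivo, where the median was 84.5%. Within 1000 bp of the gene starts of paternally imprinted genes, 0.990% to 4.35% of calls were methylated in IFC and 0 to 6.15% in vivo. Only these windows were read, so they are no check of paternally methylated imprints that lie elsewhere. IV1 stood apart from the other libraries: 34.5% of its bins lay below 20% methylation, against 42.2% to 45.4% in the other 15, and its maternal imprints were the lowest.

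For global methylation no difference beyond the scatter of the libraries was found. IFC libraries had a mean over all bins of 42.2% ± 0.933 (SD, n = 4), and those grown in vivo of 42.4% ± 1.20 (SD, n = 12), a difference of -0.186 points (two-sided exact permutation test over all 1820 assignments, p = 0.779). The 4 IFC libraries were at 42.8%, 43.0%, 42.3% and 40.9%, inside the in vivo range of 40.9% to 45.3% (median 42.4%). Against SO alone, the prepubertal in vivo group, the difference was -0.0420 points (exact p = 0.960). Among libraries with fewer than 12000000 calls it was -0.553 points (exact p = 0.341).

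The bins fell mainly into a low and a high class of methylation on both sides. In IFC, 43.2% ± 0.718 (SD, n = 4) of bins lay below 20% methylation and 26.8% ± 1.28 lay above 80%. In vivo these shares were 42.9% ± 2.83 and 27.2% ± 0.797 (SD, n = 12). None of the 3 level classes differed between the sides (adjusted p = 0.943 for each, exact permutation tests, Benjamini-Hochberg over the 3 classes). Without IV1 the share of bins from 20 to 80% was 1.03 points higher in IFC. Among libraries of fewer than 12000000 calls, where a median bin held 27 to 32 calls in vivo, IFC had 1.07 points more bins from 20 to 80% and 1.22 points fewer above 80% (a difference of -1.22 points, adjusted exact p = 0.0238 for both). With all libraries thinned to equal calls the difference in the share from 20 to 80% was -0.358 points.

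Bins within genes averaged 59.3% ± 1.02 (SD, n = 4) after culture, against 59.1% ± 0.833 in vivo (SD, n = 12). Bins outside genes averaged 26.0% ± 0.672 and 26.8% ± 1.89, a difference of -0.826 points that was -0.331 without IV1. In none of these 2 classes or of 5 classes of CpG number was a difference beyond that scatter found (adjusted p = 0.760 for each of the 7, exact permutation tests, Benjamini-Hochberg over the 7).

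Single bins did differ, and mostly by lower methylation after culture. In 1736 bins, 1.37% of those tested, the difference passed an adjusted p of 0.05 (limma on library percentages, Benjamini-Hochberg over all bins). With a further limit of 20 points, 982 bins (0.773%) were hypomethylated in IFC and 247 (0.194%) hypermethylated. The median difference of the hypomethylated bins was -29.2 points with a median standard error of 6.06, and that of the hypermethylated bins was 27.3 points with 5.87. Over all bins tested the median difference was 0.123 points.

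**Figure D1:**
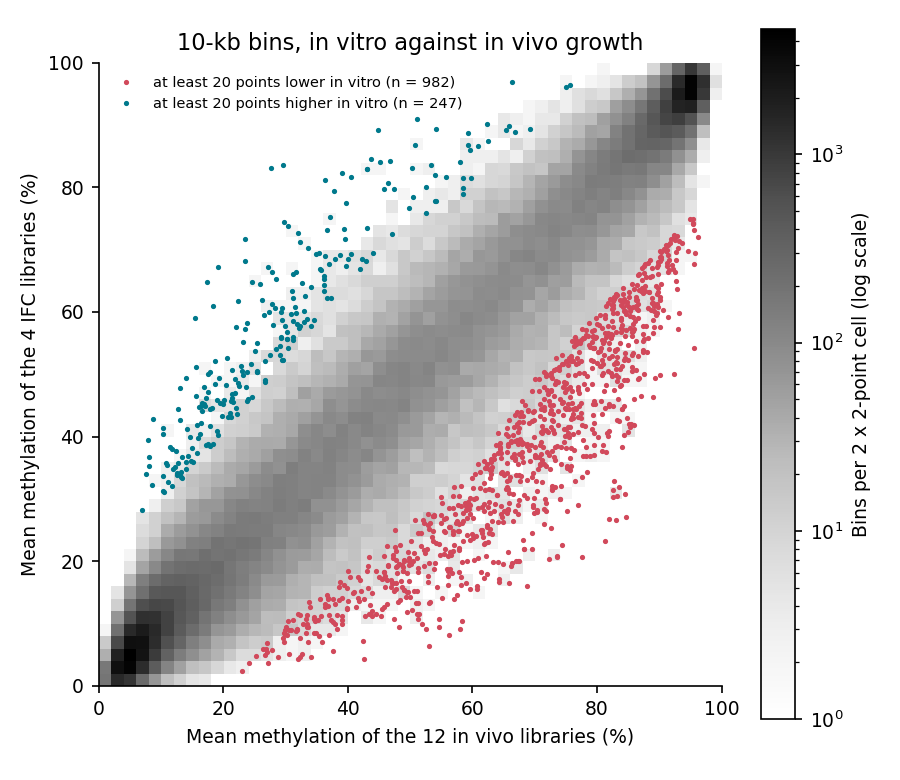
Mean methylation of 10-kb bins in the 12 in vivo libraries (x axis, %) and in the 4 IFC libraries (y axis, %); grey cells count all 127112 bins on a log scale, and coloured points are the 982 bins at least 20 points lower and the 247 at least 20 points higher in IFC. Most bins lie along the diagonal, and the called bins lie mainly at middle levels of methylation.

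The number of called bins depended on which in vivo libraries were used, and effects of culture, hormone and age cannot be fully told apart in these groups. With sexual maturity as a covariate, so that the contrast rests on IFC against SO, 296 bins were hypomethylated and 75 hypermethylated in IFC. Against the 5 in vivo libraries of fewer than 12000000 calls, 212 were hypomethylated and 20 hypermethylated. Without IFC4 the number of hypomethylated bins was 562, and without IFC2 that of hypermethylated bins was 150. Without IV1 these numbers were 828 and 221.

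At the called bins the 3 in vivo groups were not equal, and SO lay nearest to IFC. Over the 982 hypomethylated bins IFC averaged 37.5% ± 2.24 (SD, n = 4) and SO 62.5% ± 4.19 (n = 5), while SOA stood at 72.7% ± 2.31 (n = 4) and IV at 71% ± 0.725 (n = 3). Over the 247 hypermethylated bins IFC averaged 58.1% ± 2.73 and SO 34.2% ± 1.12, while SOA stood at 25.2% ± 0.878 and IV at 26.4% ± 3.65. These levels chose the bins and are given as a description. SO lay between IFC and both adult groups in 766 hypomethylated bins (78.0%) and in 173 hypermethylated bins (70.0%), against 22.7% of all bins. It was within 20 points of IFC in 235 hypomethylated bins (23.9%) and in 83 hypermethylated bins (33.6%), against 98.7% of all bins. The choice of bins made IFC the most extreme of the 4 groups in every one of them, so nothing is read from these counts about SO.

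In 586 of the 982 hypomethylated bins every IFC library lay below every in vivo library. Such a gap between the sides was present in 951 of all tested bins (0.748%). In 134 of the 247 hypermethylated bins every IFC library lay above every in vivo library, which was so in 326 of all tested bins (0.256%). The test used the same values, so nothing is read from these counts beyond the size of the gaps.

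At bins chosen without it, each IFC library was compared with the in vivo libraries, which did take part in the choice. When IFC1 was left out, 761 bins were called hypomethylated from the other 3 IFC libraries. At these bins IFC1 averaged 47.7%, the in vivo libraries 63.9% to 79.8%. IFC1 lay below the in vivo mean in 96.2% of these bins and below all 12 in vivo libraries in 74.0%. Over all bins tested these shares were 48.3% and 6.81%, which are not the shares to be read as no change, since the bins were chosen for high in vivo values.

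IFC2 averaged 47.6% at the 769 bins called without it, IFC3 47.6% at 738 bins and IFC4 40.5% at 562 bins, with in vivo means of 72.6%, 73.2% and 72.9%. At bins called hypermethylated without them, IFC1 averaged 44.4% over 199 bins, IFC2 48.2% over 150, IFC3 45.4% over 183 and IFC4 39.5% over 241. The in vivo means there were 24.4%, 23.9%, 24.6% and 25.7%. At hypomethylated bins IFC2, IFC3 and IFC4 lay below all in vivo libraries in 68.4%, 73.8% and 87.9%. Over all bins tested these shares were 8.75%, 7.62% and 12%. At hypermethylated bins IFC4 lay above the in vivo mean in 81.7% and above all in vivo libraries in 45.2%. For the other 3 these shares were 89.6% to 94.0% and 60.3% to 72.0%. Over all bins they were 45.1% and 6.75% for IFC4, and 49.4% to 51.9% and 6.99% to 10.2% for the other 3. The shares over all bins are again not to be read as no change. The hypomethylated bins were chosen for high in vivo values and the hypermethylated bins for low ones. The held-out library lay outside the in vivo range of library means in both directions and in all 4 cases, and in 7 of the 8 it was nearer to the in vivo mean than the other 3 IFC libraries by more than 5 points. The in vivo libraries helped to choose these bins, which by itself moves their range away from IFC. A place outside that range is therefore a description and no separate test of the calls.

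**Figure D2:**
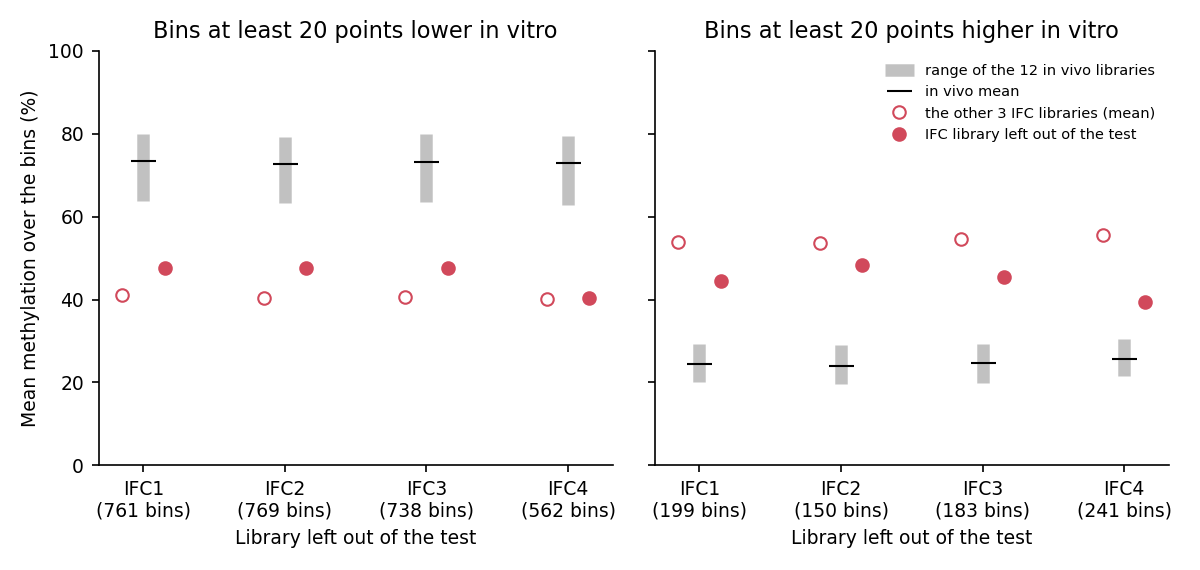
Mean methylation (y axis, %) over bins called from 3 IFC libraries, for each IFC library left out of the test in turn (x axis); filled circles are the library left out, open circles the mean of the other 3, bars the range of the 12 in vivo libraries and dashes their mean. At hypomethylated bins the libraries left out lie at 40.5% to 47.7%, and at hypermethylated bins at 39.5% to 48.2%, outside the in vivo ranges. The in vivo libraries took part in the choice of the bins.

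Called bins were scattered over all autosomes and lay mostly at middle levels of methylation. Hypomethylated bins made up 0.280% of the tested bins of chromosome 16 and 1.30% of those of chromosome 6, the lowest and highest shares. Hypermethylated bins ranged from 0.0954% on chromosome 17 to 0.385% on chromosome 18. By their mean over all libraries, 873 hypomethylated and 214 hypermethylated bins lay between 20 and 80%, a class that held 29.7% of all bins. A bin near 0 or 100% has little room for a difference of 20 points.

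Of the hypomethylated bins, 463 (47.2%) lay wholly within genes and 467 (47.6%) wholly outside, against 42.7% and 39.8% of all bins. Of the hypermethylated bins, 121 (49.0%) lay within genes and 79 (32.0%) outside. A hypomethylated bin held a median of 94 CpGs, a hypermethylated bin 107 and a tested bin 101. Within the fifth of bins with most CpGs, 0.326% were hypomethylated and 0.228% hypermethylated. In the other 4 classes of CpG number the hypomethylated share was 0.810% to 0.956%.

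Neighbouring bins were often called together. The 982 hypomethylated bins formed 741 runs, and 395 of them (40.2%) lay in 154 runs of 2 or more adjacent bins. The 247 hypermethylated bins formed 214 runs, with 56 bins (22.7%) in 23 runs of 2 or more. Hypomethylated bins had their midpoint in 212 protein-coding genes and hypermethylated bins in 108, and 3 genes held both kinds. In 23 genes 5 or more bins were hypomethylated, whereas 3 genes held 5 or more hypermethylated bins.

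The genes with most hypomethylated bins were long genes. Sox5 led with 22 of its 89 tested bins, ahead of Myo16 with 21 of 42, Etl4 with 18 of 40, Tenm4 with 15 of 65 and Rims1 with 12 of 24. They were followed by Gm37240 (11), Mapk10 (10 of 25), Plxna4 (10 of 42), Prkcb (8 of 33) and Astn1 (7 of 17). Cdh13 and Grin2b also held 7, and were placed behind Astn1 by their smaller gene-body difference. These counts stand against 0.773% of all bins. A gene with more bins has more chances to hold called ones.

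Sox5 (chr6:143828425-144781977, minus strand) encodes a transcription factor of the SoxD group with roles in cartilage and neural development. Over the whole gene body its methylation was 36.6%, 37.5%, 36.4% and 28.7% in the IFC libraries and 41.5% to 55.5% in vivo (median 49.4%), a difference of -14.4 points (SE 3.15, limma adjusted p = 0.0286 over 14214 gene bodies). Its 22 called bins lay between 87.0 and 917 kb from the gene start and averaged 44.8% in IFC, 69.4% in SO and 76.0% in the adult groups. The gene-body call was lost when any IFC library was left out.

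Myo16 (chr8:10153911-10634742, plus strand), an unconventional myosin gene, was at 53.9%, 58.0%, 52.7% and 45.6% in the IFC libraries and at 65.8% to 77.1% in vivo (median 70.3%). All 4 IFC libraries lay below all 12 in vivo libraries, with a difference of -18.3 points (SE 2.94, limma adjusted p = 0.00278). The called bins of the gene reached from 1.09 to 341 kb from the start, and a pair of called bins lay upstream of it, and the remaining bins of the gene averaged 66.3% in IFC and 73.4% in vivo. Etl4 (chr2:19909780-20810713, plus strand) was at 28.2% to 33.1% in IFC and 39.6% to 50.7% in vivo, a difference of -14.3 points (SE 2.80, adjusted p = 0.0135). Its 18 bins lay 605 to 855 kb from the start, towards the end of the gene, at 26.6% in IFC against 63.2% in vivo.

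Tenm4 and Rims1 showed the same direction. Tenm4 (chr7:96171246-96911093, plus strand) encodes a teneurin, a cell-surface protein of neuronal wiring, and was at 22.8%, 21.3%, 20.4% and 19.8% in IFC against 28.9% to 40.8% in vivo (median 34.4%, difference -13.4 points, SE 2.42, adjusted p = 0.00660). Rims1 (chr1:22286251-22805994, minus strand), which codes for a scaffold protein of the presynaptic active zone, was at 46.3%, 38.9%, 43.6% and 40.3% in IFC and at 53.1% to 68.1% in vivo (median 62.9%). The difference was -19.3 points (SE 3.30, adjusted p = 0.00427), and the 12 called bins averaged 29.0% in IFC, 62.4% in SO and 77.8% in the adult groups. Without overlap between the sides, SO was in both genes the in vivo group nearest to IFC.

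Mapk10, the gene of the stress-activated kinase JNK3, was at 50.5%, 52.0%, 47.4% and 49.8% in IFC and at 54.5% to 82.0% in vivo (median 73.3%, difference -20.9 points, SE 4.42, adjusted p = 0.0222). Its in vivo groups differed in level, with 62.6% in SO, 77.6% in SOA and 75.7% in IV. Prkcb, a protein kinase C gene, was at 39.4%, 35.6%, 39.6% and 28.3% in IFC against 44.8% to 57.0% in vivo (difference -15.7 points, SE 3.18, adjusted p = 0.0168). Astn1, which codes for the neuronal migration protein astrotactin, was at 22.0% to 26.1% in IFC against 33.6% to 46.1% in vivo (difference -14.8 points, SE 2.69, adjusted p = 0.00734).

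In Astn1 the 7 called bins, 153 to 323 kb from the start, averaged 38.9% in IFC and 75.6% in vivo, whereas its other 10 tested bins averaged 9.17% and 8.0%. Plxna4, a semaphorin receptor gene, held 10 called bins at 51.4% in IFC and 78.8% in vivo, yet its gene body did not pass the threshold (difference -9.43 points, adjusted p = 0.0953). All 4 IFC libraries were nevertheless below all in vivo libraries there, at 56.2% to 66.2% against 68.7% to 76.5%. The gene-body calls of Tenm4, Rims1, Mapk10, Prkcb and Astn1 were lost with maturity as a covariate and against the shallow in vivo libraries alone, as were those of Sox5 and Etl4, while that of Myo16 was lost only against the shallow libraries among these 2 settings. That of Mapk10 was lost when any IFC library was left out, and those of Etl4 and Prkcb without IFC2 or IFC4.

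**Figure D3:**
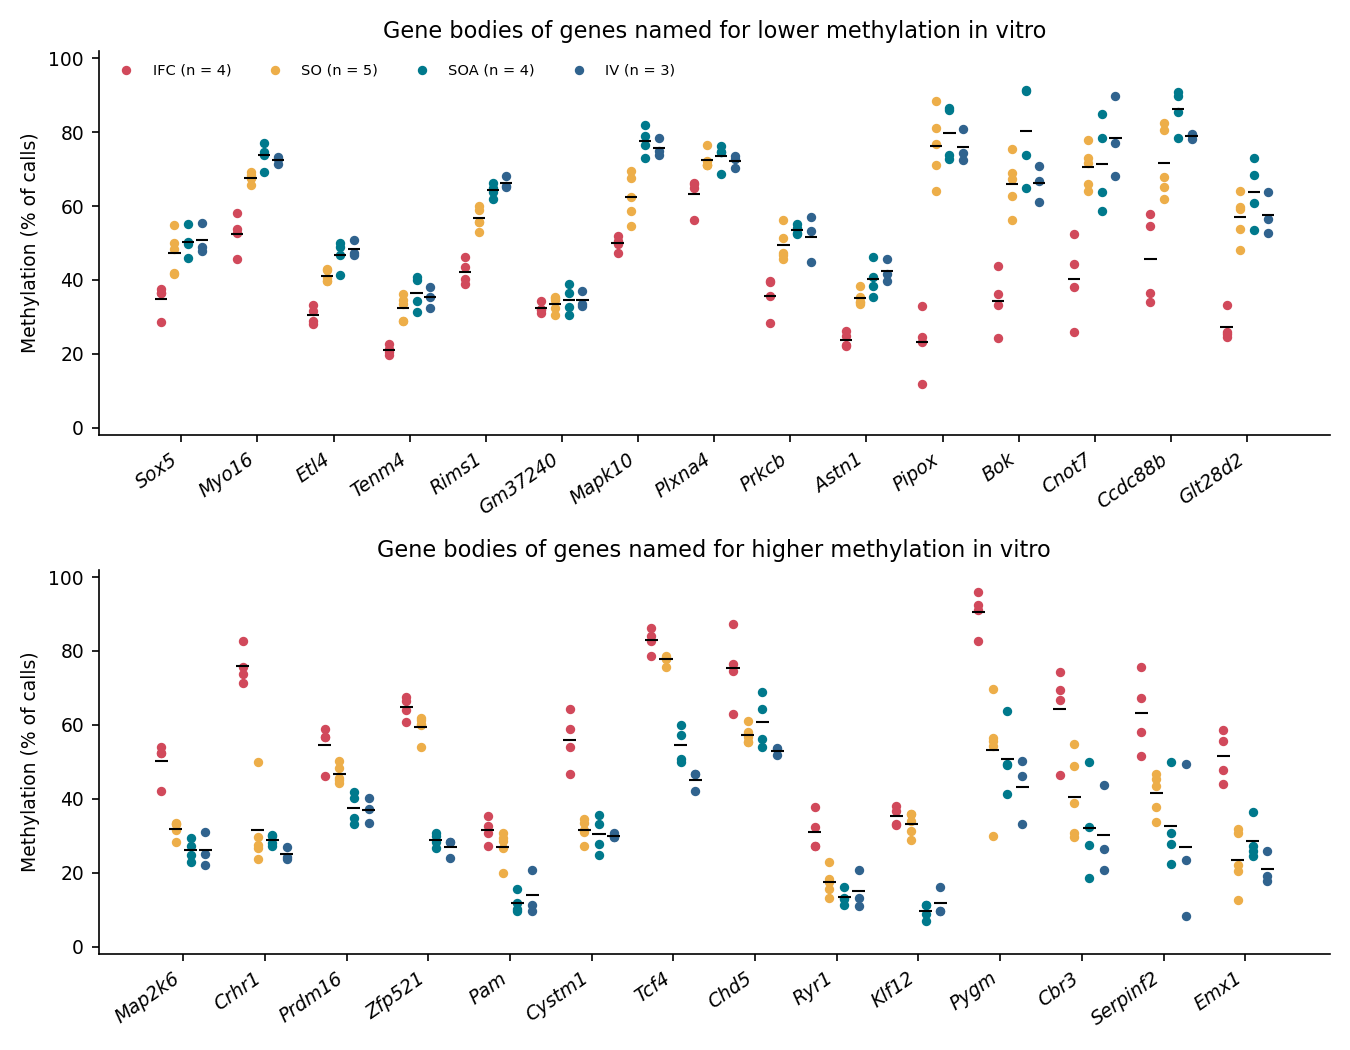
Gene-body methylation (y axis, % of calls) of the genes named for lower (upper panel) or higher (lower panel) methylation in IFC; each point is a library, coloured by group, and lines are group means. Pipox, for example, lies at 11.8% to 32.9% in IFC and 64.0% to 88.3% in vivo, whereas Klf12, Tcf4 and Zfp521 have SO near IFC.

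The longest run of adjacent hypomethylated bins covered 8 bins of chromosome 3 (chr3:85810001-85890000), over Glt28d2 and an intron of Fam160a1. GENCODE also places the model Gm37240 there, which spans both genes, so called bins counted for Gm37240 can also belong to them. The run averaged 29.5%, 30.3%, 24.6% and 39.1% in the IFC libraries and 56.8% to 74.9% in vivo (median 69.0%), and every bin had an adjusted p of 0.0113 or less. Over its whole body Gm37240 differed by -1.78 points (adjusted p = 0.840). Glt28d2, a glycosyltransferase gene inside the run, differed by -32.2 points (24.7%, 25.8%, 25.3% and 33.3% in IFC, 48.1% to 73.0% in vivo, SE 4.04, adjusted p = 0.000393).

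Runs of 6 hypomethylated bins lay in Etl4 (chr2:20630001-20690000), Myo16 (chr8:10370001-10430000) and Arhgef28 (chr13:97950001-98010000). In Arhgef28 the run was at 46.0%, 33.6%, 40.8% and 33.3% in IFC and at 60.9% to 79.5% in vivo. SO was there at 69.1%, SOA at 72.6% and IV at 66.6%, so that SO did not lie between IFC and the adult groups. In the Etl4 run SO was at 47.8% against 66.3% in SOA and 66.2% in IV, and IFC was at 22.6%. A pair of runs of 5 bins lay outside genes. The run at chr1:77270001-77320000 was 47.2 kb from Epha4, an ephrin receptor gene, and was at 50.3% in IFC against 80.2% in vivo. The run at chr1:183510001-183560000 was 73.2 kb from Hhipl2, at 49.4% against 82.3%.

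**Figure D4:**
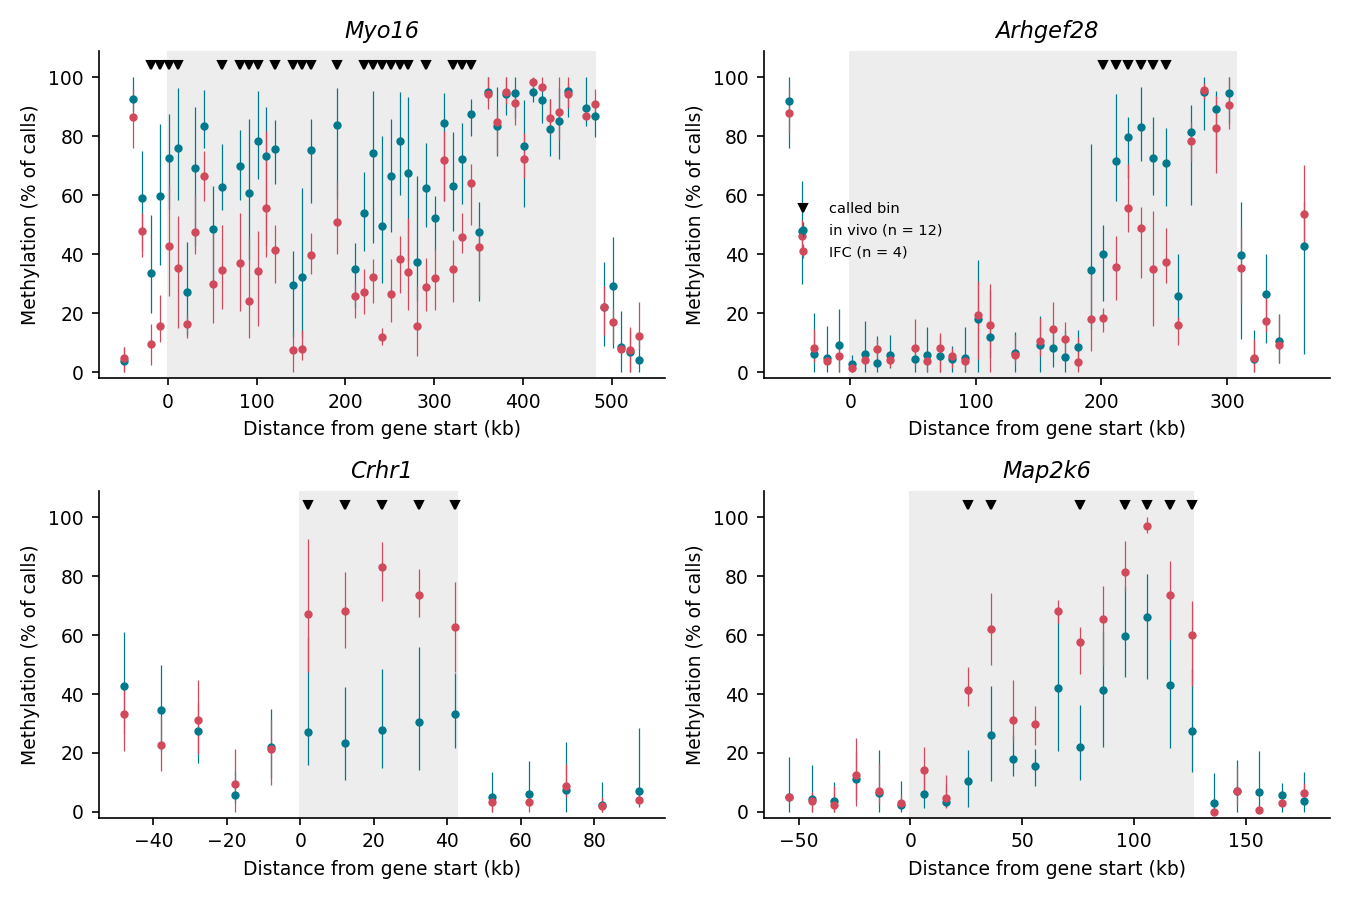
Methylation of 10-kb bins (y axis, % of calls) by distance from the gene start (x axis, kb) in Myo16, Arhgef28, Crhr1 and Map2k6; points are means of the 4 IFC and the 12 in vivo libraries, bars run from the lowest to the highest library, grey marks the gene and triangles the called bins. In Myo16 called bins lie from -18.91 kb, upstream of the start, into the gene, in Arhgef28 they include a block of 6 bins, and in Crhr1 they are all 5 bins of the gene.

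Hypermethylated bins were fewer per gene. Map2k6 held 7 of 13 tested bins, Crhr1 5 of 5, Prdm16 5 of 32, Zfp521 4 of 26 and Pam 4 of 22. Cystm1 (3 of 6), Tcf4 (3 of 35), Chd5 (3 of 5), Ryr1 (3 of 13) and Klf12 (3 of 36) completed the list, against 0.194% of all bins. Kcnab1 and Cdh6 also held 3, but were placed behind by their smaller gene-body difference.

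Crhr1 (chr11:104132855-104175523, plus strand), the receptor gene for corticotropin-releasing hormone, showed the largest gain among the called gene bodies. It was at 73.9%, 82.7%, 75.7% and 71.3% in the IFC libraries and at 23.6% to 50% in vivo (median 27.4%), a difference of 46.9 points (SE 3.88, limma adjusted p = 1.99e-06). The highest in vivo library was SO1, and the other 11 lay at or below 30.3%. Map2k6 (chr11:110399122-110525522, plus strand) encodes a kinase that activates p38. It was at 53.9%, 42.2%, 52.5% and 52.5% in IFC and 22.2% to 33.4% in vivo (difference 21.7 points, SE 2.83, adjusted p = 0.000502), and 4 adjacent bins at its end formed the second longest run. The next runs were 5 of 3 bins each. They lay in Chd5, Cystm1, Tcf4, Cdh6 and over Trpm4, Hrc and Ppfia3 (chr7:45330001-45360000). The run over Trpm4, Hrc and Ppfia3 was at 36.2%, 54.5%, 30.6% and 25.9% in IFC and at 8.26% to 21.5% in vivo. That in Cdh6, a cadherin gene (chr15:13070001-13100000), was at 66.9%, 62.4%, 70.1% and 51.8% against 13.0% to 45.4%.

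Cystm1, Ryr1 and Chd5 were also hypermethylated over the gene body. Cystm1 was at 58.8%, 54.1%, 64.2% and 46.8% in IFC and at 24.9% to 35.7% in vivo (difference 25.2 points, SE 2.92, adjusted p = 0.000175). Ryr1, the calcium release channel of skeletal muscle, was at 27.2% to 37.8% against 10.9% to 22.8% (difference 15.6 points, SE 2.38, adjusted p = 0.00175). Chd5, a chromatin remodeller gene, was at 63.0% to 87.2% against 51.9% to 68.8% (difference 17.9 points, SE 3.94, adjusted p = 0.0289), and its call was lost under 9 of 22 alternatives. The gene-body calls of Map2k6 and Cystm1 were lost against the shallow libraries alone.

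A different arrangement was found over the gene bodies of Zfp521, Tcf4, Klf12 and Pam, where SO was close to IFC and the 2 adult groups were low. Zfp521, a zinc-finger transcription factor gene, was at 60.8% to 67.5% in IFC. The group mean of IFC was 64.7% and that of SO 59.5%, while SOA stood at 28.9% and IV at 27%. Tcf4, the gene of an E-box binding protein, had means of 82.9%, 77.7%, 54.5% and 45.2% in the same order.

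Klf12, which encodes a Krüppel-like repressor, was at 35.3%, 33.3%, 9.57% and 11.8%, and Pam, the gene of the enzyme that amidates peptide hormones, at 31.5%, 27.1%, 11.9% and 13.9%. None of these 4 passed the threshold over the gene body with all in vivo libraries in 1 group (adjusted p = 0.186 for Zfp521, 0.199 for Tcf4, 0.262 for Klf12 and 0.168 for Pam). All 4, and Prdm16, passed in the contrast that gives the 3 in vivo groups equal weight and fits each group its own mean. The error there is the spread within groups only, so the gap between SO and the adult groups does not count in it. These passes are therefore not read as a difference of IFC from each in vivo group. IFC minus SO was 5.24 points in Zfp521, 5.21 in Tcf4, 2.0 in Klf12 and 4.46 in Pam. Prdm16, a zinc-finger regulator of brown fat, was at 46.1% to 58.9% in IFC and 33.3% to 50.2% in vivo (difference 13.4 points, adjusted p = 0.0887), with SO at 46.7%, SOA at 37.6% and IV at 37.0%.

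Whole gene bodies were called in both directions. Of 14214 gene bodies with at least 20 calls in every library, 81 (0.57%) were hypomethylated and 76 (0.535%) hypermethylated in IFC (limma, adjusted p below 0.05). A difference of 20 points or more was reached by 29 and 26 of them. The median length of the hypomethylated genes was 56.7 kb, of the hypermethylated 22.0 kb and of all tested 30.8 kb. With maturity as a covariate 22 were hypomethylated and 29 hypermethylated, and against the shallow in vivo libraries 14 and 7. Hypomethylated and hypermethylated genes numbered 48 and 45 without IFC1, 45 and 31 without IFC2, 45 and 40 without IFC3, and 41 and 75 without IFC4. In a contrast that gives the 3 in vivo groups equal weight, with only the spread within groups as error, they numbered 158 and 210.

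The largest losses were in short genes with few calls. Pipox (chr11:77880615-77894096, minus strand), the gene of a peroxisomal oxidase of pipecolic acid, was at 24.6%, 32.9%, 23.1% and 11.8% in the IFC libraries and at 64.0% to 88.3% in vivo (median 75.6%). This difference of -54.2 points (SE 4.45, limma adjusted p = 1.99e-06) rested on as few as 44 calls in a library, and SO, SOA and IV were at 76.3%, 79.7% and 75.9%. Bok, a member of the BCL2 family, was at 24.3%, 43.7%, 33.3% and 36.3% against 56.1% to 91.3% (difference -36.4 points, SE 5.68, adjusted p = 0.00228). Ccdc88b was at 34.1%, 57.9%, 54.6% and 36.6% against 61.8% to 90.9% (difference -32.5 points, SE 5.35, adjusted p = 0.00328). In all 3 genes the sides did not overlap, which is a description only, since the test used the same values. The calls of Pipox and Bok held under all 22 alternatives run for gene bodies, while that of Ccdc88b was lost with maturity as a covariate.

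The largest gains after Crhr1 were in Pygm, Cbr3, Serpinf2 and Emx1. Pygm (chr19:6384399-6398459, plus strand), the muscle form of glycogen phosphorylase, was at 91.0%, 92.5%, 96.0% and 82.7% in IFC and at 30% to 69.8% in vivo (median 49.8%, difference 40.6 points, SE 5.74, adjusted p = 0.000966). Cbr3, a carbonyl reductase gene, was at 46.5%, 74.2%, 69.5% and 66.7% against 18.5% to 54.8%, and overlapped in IFC1 (difference 29.0 points, SE 6.33, adjusted p = 0.0278). Serpinf2, the gene of the plasmin inhibitor, was at 51.7% to 75.7% against 8.26% to 50% (difference 28.3 points, SE 6.55, adjusted p = 0.0387). The calls of Cbr3 and Serpinf2 were lost under 6 of 21 and 12 of 20 alternatives, with as few as 31 and 24 calls in a library.

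Soga1, a gene of glucose metabolism with low methylation in SO, did not separate the sides: it was at 40.9% to 53.6% in IFC and at 20.0% to 68.7% in vivo, with group means of 25.4% in SO, 59.3% in SOA and 50.7% in IV (difference 3.57 points, adjusted p = 0.924).

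CpG-dense regions, merged windows of at least 50 CpGs within 1000 bp, were mostly unmethylated on both sides. Of 1601 regions with at least 20 calls in every library, 1470 averaged below 20% methylation, and the mean over regions was 7.11% in IFC and 7.53% in vivo. In 6 of them (0.375%) the difference passed an adjusted p of 0.05 (limma). All 6 overlapped an exon, and all but the region in Tet3 covered the start of a gene. Hypomethylated were a region at the start of Vps37a, which also overlaps an exon of Cnot7, and a region in Tet3, and hypermethylated were regions at Emx1, Rps20, Morc2a and Tppp. The 6 regions held as few as 22 to 37 calls in a library, so that none of them could be tested with 2 times the minimum number of calls, and no region was called among the 190 that could.

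For the 4 regions with the largest differences, a stretch of 240 bases outside exons is printed, to show where in the region the calls of the sides lay apart. Each is the stretch with the largest difference in pooled calls among those with at least 20 calls on each side, so its values are a description. Sequences are of the GRCm38 plus strand, 5′ to 3′, from RefSeq, with CpGs, the positions read by the assay, in capitals.
Vps37a, chr8:40512240-40512479: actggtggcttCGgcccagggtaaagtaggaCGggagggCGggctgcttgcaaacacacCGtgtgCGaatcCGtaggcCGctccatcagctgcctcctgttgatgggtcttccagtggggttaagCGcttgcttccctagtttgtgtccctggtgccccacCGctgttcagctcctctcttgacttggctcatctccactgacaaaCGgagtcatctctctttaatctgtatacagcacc
Tet3, chr6:83457184-83457423: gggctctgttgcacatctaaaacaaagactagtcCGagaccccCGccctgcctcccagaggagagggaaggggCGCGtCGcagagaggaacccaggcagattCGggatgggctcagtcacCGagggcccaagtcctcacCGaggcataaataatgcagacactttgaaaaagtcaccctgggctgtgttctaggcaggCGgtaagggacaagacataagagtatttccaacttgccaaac
Emx1, chr6:85186080-85186319: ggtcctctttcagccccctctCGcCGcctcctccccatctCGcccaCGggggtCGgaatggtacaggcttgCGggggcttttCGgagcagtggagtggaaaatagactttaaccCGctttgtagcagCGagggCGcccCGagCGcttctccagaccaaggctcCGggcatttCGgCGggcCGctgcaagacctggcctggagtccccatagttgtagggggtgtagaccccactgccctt
Rps20, chr4:3836277-3836516: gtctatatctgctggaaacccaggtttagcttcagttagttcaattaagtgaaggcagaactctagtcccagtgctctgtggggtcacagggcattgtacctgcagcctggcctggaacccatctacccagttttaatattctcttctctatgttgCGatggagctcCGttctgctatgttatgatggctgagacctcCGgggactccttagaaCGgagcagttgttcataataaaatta

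The region at the start of Vps37a, an ESCRT-I component (chr8:40510436-40512868, 161 CpGs), was at 6.58%, 6.94%, 31.0% and 11.1% in the IFC libraries and at 38.0% to 93.8% in vivo (median 66.1%). The sides did not overlap (difference -51.8 points, SE 9.97, limma adjusted p = 0.00687), although the call was lost with maturity as a covariate and against the shallow libraries, as was that of Rps20. The stretch printed for it lies 577 bp inside Vps37a and held 10 CpGs. There 0 of 21 pooled calls were methylated in IFC (95% Wilson interval 0 to 15.5%; a limit of 3 counts would be 14.3%), against 62 of 75 in vivo (82.7%, 95% Wilson interval 72.6% to 89.6%). The gene body of Cnot7, a subunit gene of the CCR4-NOT deadenylase on the opposite strand that shares these calls, was at 38.2%, 26.0%, 52.4% and 44.3% in IFC against 58.7% to 89.8% (difference -32.6 points, SE 5.34, adjusted p = 0.00320), a call lost against the shallow libraries.

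Tet3 encodes the dioxygenase that oxidises 5-methylcytosine in the zygote. Its region (chr6:83455175-83457801, 184 CpGs) lay inside the gene, 1283 bp from the start, and was at 75.9%, 59.6%, 55.8% and 74.3% in IFC. In vivo 11 libraries were at 92.0% to 100% and IV1 was at 76.0%, just above IFC1 (difference -27.9 points, SE 3.88, limma adjusted p = 0.000148). The call held under all 20 alternatives that could be run for it. In the printed stretch 6 of 21 calls were methylated in IFC (28.6%, 95% Wilson interval 13.8% to 50%) and 53 of 54 in vivo (98.1%, 90.2% to 99.7%). The Tet3 gene body as a whole was at 89.8% in IFC and 92.6% in vivo (adjusted p = 0.452).

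The gained regions were low in methylation in vivo, with library values up to 20.3%. The region at Emx1 (chr6:85185974-85189090, 181 CpGs), a homeobox gene of the developing cortex, was at 33.9%, 18.2%, 38.6% and 11.0% in IFC and at 0 to 6.94% in vivo (difference 22.4 points, SE 3.29, limma adjusted p = 0.000199). In the stretch printed for it, at -1238 bp from the gene start, 23 of 28 calls were methylated in IFC (82.1%, 95% Wilson interval 64.4% to 92.1%) and 8 of 179 in vivo (4.47%, 2.28% to 8.57%). The gene body of Emx1, which overlaps the region, was at 58.6%, 47.8%, 55.6% and 44.0% against 12.7% to 36.4% (difference 26.9 points, SE 3.72, adjusted p = 0.000781). Both Emx1 calls were lost against the shallow libraries.

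At Rps20, a ribosomal protein gene, the region (chr4:3834484-3836573, 116 CpGs) was at 25.7%, 34.4%, 52.1% and 13.0% in IFC and at 0 to 20.3% in vivo (median 4.16%, difference 24.9 points, SE 4.72, adjusted p = 0.00687). IFC4 lay below SO4 and SO1 there, and SO averaged 11.6% against 2.11% in SOA and 3.65% in IV. In its stretch, at -732 bp from the gene start, all 22 IFC calls were methylated (95% Wilson interval 85.1% to 100%) and 16 of 64 in vivo (25.0%, 16.0% to 36.8%). These intervals cover counting error only, because reads carry no molecular identifiers and calls of several libraries were pooled.

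At Morc2a, a chromatin ATPase gene, the 4 IFC libraries were far apart, at 16.1%, 48.3%, 36.5% and 6.90% against 0 to 12.2% in vivo (difference 21.0 points, SE 4.57, adjusted p = 0.0228), and the call was lost under 6 of 21 alternatives, among them without IFC2, IFC3, SO1 or SOA3. At Tppp the difference was 2.74 points, from 1.89% to 5.26% in IFC and 0 to 1.44% in vivo (SE 0.586, adjusted p = 0.0223), and the call was lost under 7 of 21 alternatives, among them without IFC3 and without each IV library. The in vivo median there was 0 and a library held 37 to 161 calls, so the difference rested on few methylated calls.

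**Figure D5:**
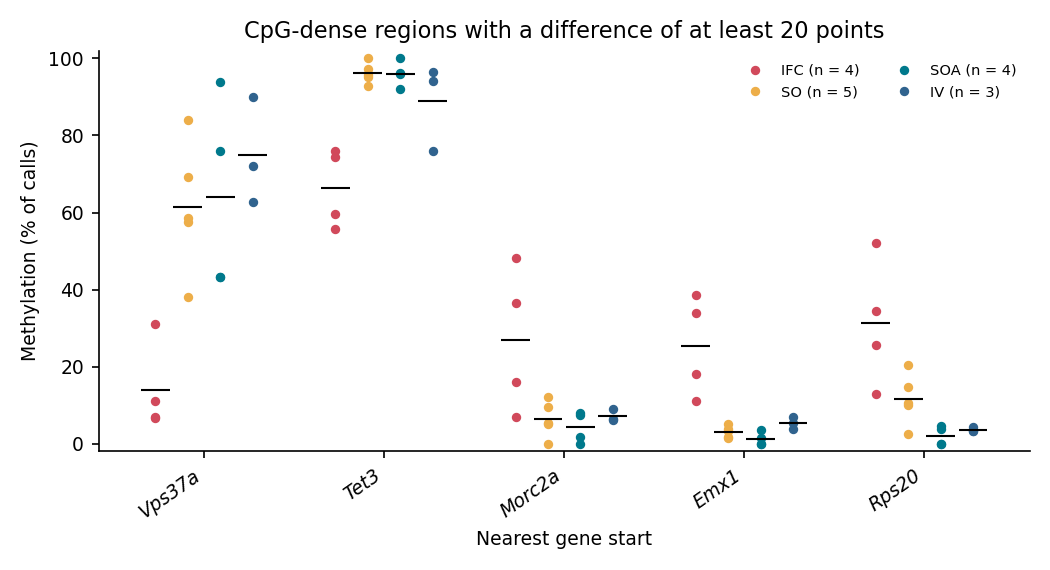
Methylation (y axis, % of calls) of the 5 CpG-dense regions that differed by at least 20 points, named by the nearest gene start (x axis); points are libraries, coloured by group, and lines are group means. The Vps37a region is at 6.58% to 31.0% in IFC and 38.0% to 93.8% in vivo, and the Emx1 region at 11.0% to 38.6% and 0 to 6.94%.

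Promoters, the 1000 bp upstream of gene starts, could be compared for 246 of 20780 genes only, as few held 10 calls in every library. None was called by limma (0%), the smallest adjusted p being 0.570, and 12 had an unadjusted p below 0.05, of which 2 were lower in IFC. Among 246 tests a level of 0.05 gives about that many by chance, so no direction is read from them. Their mean was 5.73% in IFC and 6.11% in vivo.

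No gene body of the machinery that sets and maintains methylation passed the threshold. Of 17 genes for DNA methylation and imprint maintenance 16 were measured, none passed the threshold and none of their 83 bins was called. At the shares over all gene bodies and bins given above, less than 1 call would be counted in a list of this size, so the absence of calls says nothing particular of it. Mbd3, of a methyl-CpG binding family, was at 72.5% in IFC and 56.4% in vivo (difference 16.1 points, adjusted p = 0.421), and Tet3 holds the called CpG-dense region described above. Dnmt1 was at 92.3% in IFC and 92.4% in vivo, Dnmt3a at 70.4% and 73.4%, Dnmt3l at 79.3% and 78.0%. The median difference of the list was -0.205 points, beside 0.720 points over all gene bodies. Of 20 genes of oocyte growth and maternal effect 14 were measured, with a median of 1.47 points and none called over the body or in their 41 bins. The 20 receptors and relays of culture signals, such as Fshr (17.0% and 16.9%), had a median of 0.323 points, with none called among gene bodies or 166 bins. Of all gene bodies 0.57% were called lower and 0.535% higher, and of all bins 0.773% and 0.194%. Both lists are too small for an absence of calls to be read at these shares.

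In lists of neuronal genes bins were called, whereas the lists are too small for an absence of gene-body calls to be read at 0.57% and 0.535% over all gene bodies. Of 27 genes of axon guidance and synaptic adhesion none passed over the gene body (median difference 0.809 points), yet 23 of their 612 bins (3.76%) were hypomethylated, in Plxna4 (10), Nrxn3 (6), Dcc (4), Nlgn1 (2) and Robo1 (1). A further 4 bins (0.654%, against 0.194% of all bins) were hypermethylated, in Slit2 and Sema3a. Of 24 genes of glutamate receptors and calcium channels none passed (median 1.11 points), with 11 of 598 bins (1.84%) hypomethylated, 7 of them in Grin2b, an NMDA receptor subunit gene. All bins stand at 0.773% hypomethylated.

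Among 13 measured of 18 Sox genes Sox5 passed (median 0.457 points), against 0.57% of all gene bodies. Of the 129 bins of the list 22 (17.1%) were hypomethylated, all in Sox5, which holds 89 of them, while Sox6 held 1 hypermethylated bin. Of 26 measured of 29 genes of Ras and MAPK signalling, Mapk10 passed downwards and Map2k6 upwards (median 1.22 points). The list held 13 hypomethylated (2.88%) and 8 hypermethylated (1.77%) of 452 bins, against 0.773% and 0.194% of all bins, with 10 of them in Mapk10 and 7 in Map2k6. Of the 452 bins 270 lie in the long annotated span of Fgfr2. That span covers neighbouring genes, so its 3 hypomethylated bins and 1 hypermethylated bin may lie in those genes.

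None of the 5 measured of 11 maternally imprinted genes passed (median 0.571 points, none of 13 bins called), too few to read an absence of calls at a share of 0.57% and 0.535% over all gene bodies. Rasgrf1, the single measured gene of 3 with paternal imprints and a Ras exchange factor gene, was at 43.8%, 47.0%, 38.1% and 33.1% in IFC and 49.6% to 58.6% in vivo (difference -13.2 points, SE 3.04, adjusted p = 0.0379), with 3 of 11 bins hypomethylated 45.1 to 75.1 kb inside the gene. This call was lost under 14 of 22 alternatives. It is a value of the gene body and is not read as a change at the paternal imprint.

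Distances between whole libraries were also compared. With each library reduced at random to 5022225 autosomal calls, the mean absolute difference between a pair of libraries over 109466 bins had a median of 8.34 points between IFC libraries. It was 8.48 points for IFC to SO, 9.13 for IFC to SOA and 9.15 for IFC to IV, and 8.58 between libraries of different in vivo groups. Within in vivo groups the medians were 8.045 points for SO, 8.20 for SOA and 9.64 for IV. The IV median is a pair with IV1, and the pair of IV2 and IV3 was at 7.50 points. The ranges overlapped, with 8.05 to 11.0 points for in vitro to in vivo pairs and 7.15 to 10.7 between in vivo groups. Both upper ends were pairs with IV1. Without IV1 the ranges reached 9.97 and 9.29 points and still overlapped. Pairs share libraries, so no test was made.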

How the data were processed

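CpG methylation of 16 pools of mouse oocytes was measured by PBAT. The submitters' processing notes name Trim Galore 0.4.4, cutadapt 1.9.1 and Bismark 0.19.0 with GRCm38, and duplicates were removed by the authors. The deposited files list each CpG cytosine with its percent methylation and the call counts behind it (methylated, unmethylated). Between 65.5% and 91.5% of covered positions had a single call. Counts were summed over 10-kb bins, GENCODE protein-coding gene bodies, promoters and CpG-dense regions, and turned into a percentage per library. Percentages were compared with limma 3.58.1 (R 4.3.3), Benjamini-Hochberg adjusted over all features of a kind, and single values per library with two-sided exact permutation tests. The comparison of bins was also tried on simulated counts.

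The members and the gene lists were chosen with earlier results of these data known. In each direction the text names the 10 genes with most called bins, the 5 with the largest called gene-body difference, the 3 CpG-dense regions or promoters with the largest called difference and the 3 longest runs, with ties, besides list members past the threshold and Sox5, Etl4, Myo16, Prdm16, Soga1 and Map2k6. The region at Tppp and other genes were chosen after their values were seen. Alternatives were 2 times the minimum of calls, thinning, libraries under 12000000 calls, a 4-group contrast, maturity as a covariate, library weights, a likelihood-ratio test on counts, no variance trend, means over positions, bins shifted by 5 kb, a limit of 30 points, a replicate block and leaving out each library. Same-numbered libraries of different groups did not deviate together (correlations of -0.0499 to 0.0812 over 21 pairs), so the numbers were not taken as pairs.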

Additional observations from a re-analysis of the deposited data

Results flagged for a closer look

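In 13 of 150 tests of a group's most extreme library over 50 values, the library lay apart from the others of its group, and chance alone flags about 1 in 20. Of the libraries grown in culture, IFC4 had fewer bins above 80% (24.9%, nearest 27.2%) and was lower in Sox5 (28.7%, nearest 36.4%), Plxna4 (56.2%, nearest 64.9%) and Prdm16 (46.1%, nearest 56.8%), and higher in Glt28d2 (33.3%, nearest 25.8%). IFC2 was lower in Map2k6 (42.2%, nearest 52.5%). Among the SO libraries, SO4 had more bins from 20 to 80% (31.3%, nearest 29.1%), SO1 was higher in Plxna4 (76.5%, nearest 72.3%) and in Crhr1 (50%, nearest 29.8%), and SO3 was lower in Zfp521 (54.0%, nearest 59.9%) and Tcf4 (75.6%, nearest 77.9%). SOA4 was lower at maternal imprints (80.3%, nearest 90.6%) and the only SOA library with methylated calls in the Tppp region (1.44%, the others at 0).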

How the results depend on the processing

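A median bin held 27 to 120 calls in a library, p-values rest on 4 IFC libraries, and the number of calls moved strongly with the processing, for causes that were not tested. Called bins (in all, at least 20 points lower, at least 20 points higher) numbered 939, 454 and 162 with 2 times the minimum of calls, where fewer bins were tested, and 865, 571 and 135 with thinned libraries. They numbered 241, 212 and 20 against shallow libraries only, where fewer samples were used, 3063, 1486 and 639 in the 4-group contrast, and 433, 296 and 75 with maturity as a covariate. A likelihood-ratio test on calls, which ignores the spread between libraries, gave 13084, 1798 and 790, weights by calls gave 1107 in all, and a limit of 30 points left 454 lower and 83 higher. Called gene bodies (in all, lower, higher) numbered 21, 14 and 7 against shallow libraries, 368, 158 and 210 in the 4-group contrast and 51, 22 and 29 with maturity. Called CpG-dense regions numbered 0 with 2 times the minimum, where none of the 6 could be tested, 1 against shallow libraries and 2 with maturity.

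Leaving out 1 library gave 1038 (without IFC4) to 1980 called bins, 562 (without IFC4) to 1167 lower, 150 (without IFC2) to 329 higher, 76 to 174 gene bodies, 41 to 88 lower and 31 to 86 higher. Gene bodies numbered 93 without IFC1, 76 without IFC2 and 85 without IFC3. The difference of means per library ranged from -0.428 to 0.259 points, and those of the shares of bins below 20%, from 20 to 80% and above 80% from -0.524 to 0.552, -0.211 to 1.03 and -0.665 to 0.23. Within genes it ranged from -0.0419 to 0.693, outside genes from -1.06 to -0.331 (without IV1), and in the 5 classes of CpG number, from fewest to most CpGs, from -0.486 to 0.174, -0.586 to 0.0125, -0.612 to 0.059, -0.577 to 0.125 and -0.00843 to 0.926. The global mean changed sign without IFC4 and without IV1.

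The share from 20 to 80% was also -0.286 points with 2 times the minimum and -0.358 with thinning, both with IV1 kept, and the CpG class 4 was 0.138 with 2 times the minimum. Against shallow libraries the share from 20 to 80% was 1.07 and that above 80% -1.22, both past the threshold, whereas within genes the difference was -0.393, in CpG class 5 -0.521 and in Soga1 -2.33. The replicate block gave 1612 bins, 981 lower and 240 higher, 130 gene bodies and 5 CpG-dense regions, and ended the gene-body calls of Chd5, Cbr3 and Rasgrf1.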

Other observations

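Further genes, chosen after their values were seen, held 5 or more hypomethylated bins. Plpp4, a lipid phosphate phosphatase gene, held 6 of 8 tested bins and differed by -29.5 points over the gene body (limma adjusted p = 1.67e-05). Angpt1, the gene of the vessel ligand angiopoietin, held 5 of 6 (difference -25.1 points, adjusted p = 0.00276), and Adam23, a neuronal disintegrin gene, 5 of 12 (difference -24.4 points, adjusted p = 0.000393). Ttll7, a tubulin polyglutamylase gene, held 6 of 12 (difference -17.5 points, adjusted p = 0.0362).

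In other genes the called bins were a small part and the gene body did not pass the threshold. Cdh13 held 7 of 103 (difference -7.34 points, adjusted p = 0.344), Grin2b 7 of 44 (-5.51 points, 0.463), Tenm2 6 of 85 (-6.32 points, 0.110) and Camta1 6 of 94 (-3.78 points, 0.641). In Camta1 a run of 4 bins (chr4:151160001-151200000) was at 13.9%, 12.6%, 14.4% and 21.1% in the IFC libraries, and its group means in vivo were 46.6% (SO), 70.6% (SOA) and 66.8% (IV). Rbms3 held 5 hypomethylated of 98 bins beside a gene-body difference of 1.51 points (adjusted p = 0.825).

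A shorter run of hypermethylated bins, also chosen after its values were seen, lay in Cd101. Its 2 bins (chr3:101010001-101030000) were at 43.5% to 59.8% after culture, with SO at 10.4%, SOA at 16.2% and IV at 23.1%, so SO was there the in vivo group farthest from IFC.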
